A study of Mus musculus with 10 samples.

Results

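The 10 genes described here were followed across 10 RNA sequencing libraries of mouse morulae: 8 that encode readers of N6-methyladenosine (m6A), the most frequent internal mark of messenger RNA, and 2 that encode its erasers. They were chosen by gene symbol from the 24411 genes listed in each library's table, and all 10 were found. The readers are Ythdf1, Ythdf2, Ythdf3, Ythdc1, Ythdc2, Igf2bp2, Igf2bp3 and Rbmx, and the erasers are Fto and Alkbh5. Each library was made from 10 pooled morulae grown after in vitro fertilization of superovulated oocytes, in KSOM medium. The strain is given as ICR for replicates 1 and 2 of both groups, and no strain is named for the rest. One-cell embryos were injected at 3 to 6 hpi with an antisense oligonucleotide (ASO) and harvested at 72 hpi. In 5 libraries the embryos received an ASO against Mettl3 (Mettl3-ASO) and in the other 5 a non-targeting ASO (ASO-Control), so injection itself is shared by both groups and no uninjected embryo was analysed here. Replicates 3 to 5 of each group carry the label batch 2, and replicates 1 and 2 carry no batch label and are called untagged. No label says that the libraries of a group stem from different rounds of fertilization, and the p-values below therefore cover variation among libraries that could be purely technical.

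The m6A mark is written by a nuclear complex whose catalytic subunit is METTL3, read by proteins that bind the methylated base or the RNA structure it changes, and removed by a pair of demethylases of the AlkB family. Readers that share the YTH domain hold the methylated adenosine in an aromatic pocket. YTHDF2 leads marked transcripts to decay and is needed in the mouse oocyte and early embryo for the removal of maternal RNA, while the IGF2BP proteins are known for stabilizing the messages they bind. The comparison asks how the genes for these proteins are expressed when the gene for the writing enzyme has been knocked down.

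Mettl3 itself had 0, 0, 0, 0.04 and 0.03 FPKM in Mettl3-ASO replicates 1 to 5, against 10.64, 12.68, 6.58, 7.77 and 6.62 FPKM in ASO-Control replicates 1 to 5. FPKM, the unit of all levels below, is fragments per kilobase of transcript, scaled to the depth of the library, and only such values are compared between genes. Depth, as summed expected counts, ranged between 9905830 and 13530284 for the 4 untagged libraries and between 21412857 and 32327283 for the 6 of batch 2. Of 10 markers of the morula and blastocyst lineages, 9 had a median of at least 1 FPKM in either group. Their sum was 1031, 361, 327, 362 and 292 FPKM in Mettl3-ASO replicates 1 to 5 and 1265, 1190, 528, 506 and 358 FPKM in ASO-Control replicates 1 to 5. Within each batch the Mettl3-ASO libraries lay below the controls, except replicate 4 against ASO-Control replicate 5, the untagged controls were higher than those of batch 2, and Mettl3-ASO replicate 1 stood apart from its group. That library also had the lowest sum of 2-cell markers in its group, and without it the members called were again 5 higher and 2 lower. The 10 markers of the 2-cell stage summed to 1082 to 3426 FPKM in Mettl3-ASO libraries and 3.18 to 18.29 FPKM in ASO-Control libraries, and 8 oocyte genes to 11.96 to 24.81 FPKM in Mettl3-ASO and 3.06 to 5.97 FPKM in ASO-Control. Of the oocyte genes, 3 had a median of at least 1 FPKM in Mettl3-ASO and 1 in ASO-Control. In every Mettl3-ASO library 1 of them was at 0, and none was at 0 in every ASO-Control library. The 8 markers of cumulus cells summed to at most 0.43 FPKM in Mettl3-ASO and 0.02 FPKM in ASO-Control, with 7 of them at 0 in every Mettl3-ASO library and 6 in every ASO-Control library. The 4 sperm markers summed to 0.25 to 3.04 FPKM in Mettl3-ASO and 0.51 to 2.13 FPKM in ASO-Control. The sums of the 2-cell and oocyte markers thus move with the group in every result below, as that of the lineage markers does in part. The part of these markers in those results was not tested. In pools of embryos, fewer cells of a type and less RNA per cell cannot be told apart.

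The promoters of 3 members are printed because their genes had the largest rises and the largest fall among the 10: Ythdf2 on the minus strand of chr4:132212257-132212506, Rbmx on the minus strand of chrX:57393037-57393286 and Igf2bp3 on the minus strand of chr6:49214955-49215204. They are the 250 bases before the annotated start in RefSeq's GRCm38.p6, 5′ to 3′ on the gene's strand. Capitals mark 2 of the motifs searched on both strands. The first is the GC box, spelled GGGCGG. The second is the box named for its letters, CCAAT. The third motif searched, the box of TATA type spelled TATAAA, was not found in these 3.
Ythdf2 promoter: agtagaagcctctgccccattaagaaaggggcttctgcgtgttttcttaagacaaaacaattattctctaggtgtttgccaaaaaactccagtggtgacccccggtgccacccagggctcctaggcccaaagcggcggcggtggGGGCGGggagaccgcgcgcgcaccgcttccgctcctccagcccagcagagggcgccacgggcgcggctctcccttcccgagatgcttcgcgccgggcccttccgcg
Rbmx promoter: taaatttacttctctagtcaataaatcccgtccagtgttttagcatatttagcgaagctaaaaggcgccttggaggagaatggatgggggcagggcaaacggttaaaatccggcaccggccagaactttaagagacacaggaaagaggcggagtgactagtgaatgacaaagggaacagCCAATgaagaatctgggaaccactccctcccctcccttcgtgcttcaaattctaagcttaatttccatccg
Igf2bp3 promoter: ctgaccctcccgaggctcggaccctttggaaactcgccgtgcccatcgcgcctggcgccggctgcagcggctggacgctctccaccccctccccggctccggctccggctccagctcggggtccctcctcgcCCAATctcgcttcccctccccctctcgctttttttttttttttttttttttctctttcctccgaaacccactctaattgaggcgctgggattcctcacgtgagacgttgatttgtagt

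The promoter of Ythdf2 holds 1 GC box and 22 CpG dinucleotides, that of Rbmx 1 CCAAT box and 9, and that of Igf2bp3 1 CCAAT box and 21. Among 32851 promoters of the same length, 32.7% hold a GC box, 33.9% a CCAAT box and 12.4% a TATA box, and the median CpG count is 6. None of the 8 members with a promoter in the table (all but Ythdf3 and Ythdc2) holds TATAAA in this window. The genes that rose share no promoter motif of the 3 searched: Ythdf2 and Ythdc1 hold GC boxes alone, Rbmx a CCAAT box alone, and Ythdf1 and Alkbh5 both kinds.

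The core of the m6A consensus is the 5-base run GGACT in its DNA spelling. It was searched on the sense strand in the 300 bases centred on the end of the coding sequence, where the mark is known to be frequent. The sequence was 1 GENCODE M21 transcript per member, matched to a RefSeq accession listed for it. Rbmx and Ythdf3 are listed with 3 transcripts each. The Rbmx transcript used has 2108 bases, while its abundance-averaged length was 2416 to 2429 bases in ASO-Control, so it may not be the main one expressed. The transcripts used for Ythdc2, Alkbh5 and Ythdf3 have 7215, 5730 and 4929 bases. Their lengths in the Mettl3-ASO libraries were 6299, 6025 and 5131 to 5158 bases. The remaining members differed less or not at all. Of the 10 members, 4 hold GGACT once in that window and the other 6 do not, beside 31.2% of 18834 genes with a complete window. The 4 runs are shown because they are the matches to this one spelling in the window; other spellings of the consensus were not searched, and a match does not show that the base is methylated. Each line gives 25 bases in GRCm38 with GGACT in capitals: Ythdf2 in the 3′ UTR (minus strand, chr4:132186832-132186856), Rbmx in the 3′ UTR (minus strand, chrX:57386985-57387009), Alkbh5 in the 3′ UTR (plus strand, chr11:60554423-60554447) and Fto in coding sequence (plus strand, chr8:91666292-91666316).
Ythdf2: aagaaaattaGGACTttttttctta
Rbmx: aactacccaaGGACTactaaaagga
Alkbh5: tgccctcttgGGACTctggctaatc
Fto: cgagtcgtccGGACTttaccagtac

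Of the 4 transcripts with the run in that window 3 (Ythdf2, Rbmx and Alkbh5) were higher in Mettl3-ASO morulae, as given below, but so were Ythdf1 and Ythdc1, which lack it there. Over the whole transcript, Alkbh5 holds 10 such runs (1.75 per kb), Rbmx 4 (1.90 per kb), Ythdf2 5 (1.21 per kb) and Igf2bp2, which fell, 5 (1.28 per kb). Ythdc1 holds none.

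Of the 9 members that passed the filter of a mean of at least 1 FPKM over all libraries, 5 rose, 2 fell and 2 were not called in Mettl3-ASO against ASO-Control morulae. A gene was called at an adjusted p under 0.05 in the quasi-likelihood test of edgeR over 9522 genes, with a term for batch. Fto did not pass the filter. Of all genes tested, 49.4% were called (25.4% higher and 24.0% lower). The median absolute log2 fold change was 0.72 over the 9 members, beside 0.51 over all genes tested, and the median signed value was 0.40, beside 0.01. The levels of the 2 groups did not overlap for 3 of the 10 members (Ythdf2, Rbmx and Alkbh5, all higher), beside 25.6% of all genes tested. Within batch 2 they did not overlap for 6 members, 4 higher and 2 lower, beside 51.7% of genes. Within the untagged libraries, where 2 stand against 2, they did not overlap for any of the 10, 6 higher and 4 lower, beside 58.6% of genes.

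**Figure D1:**
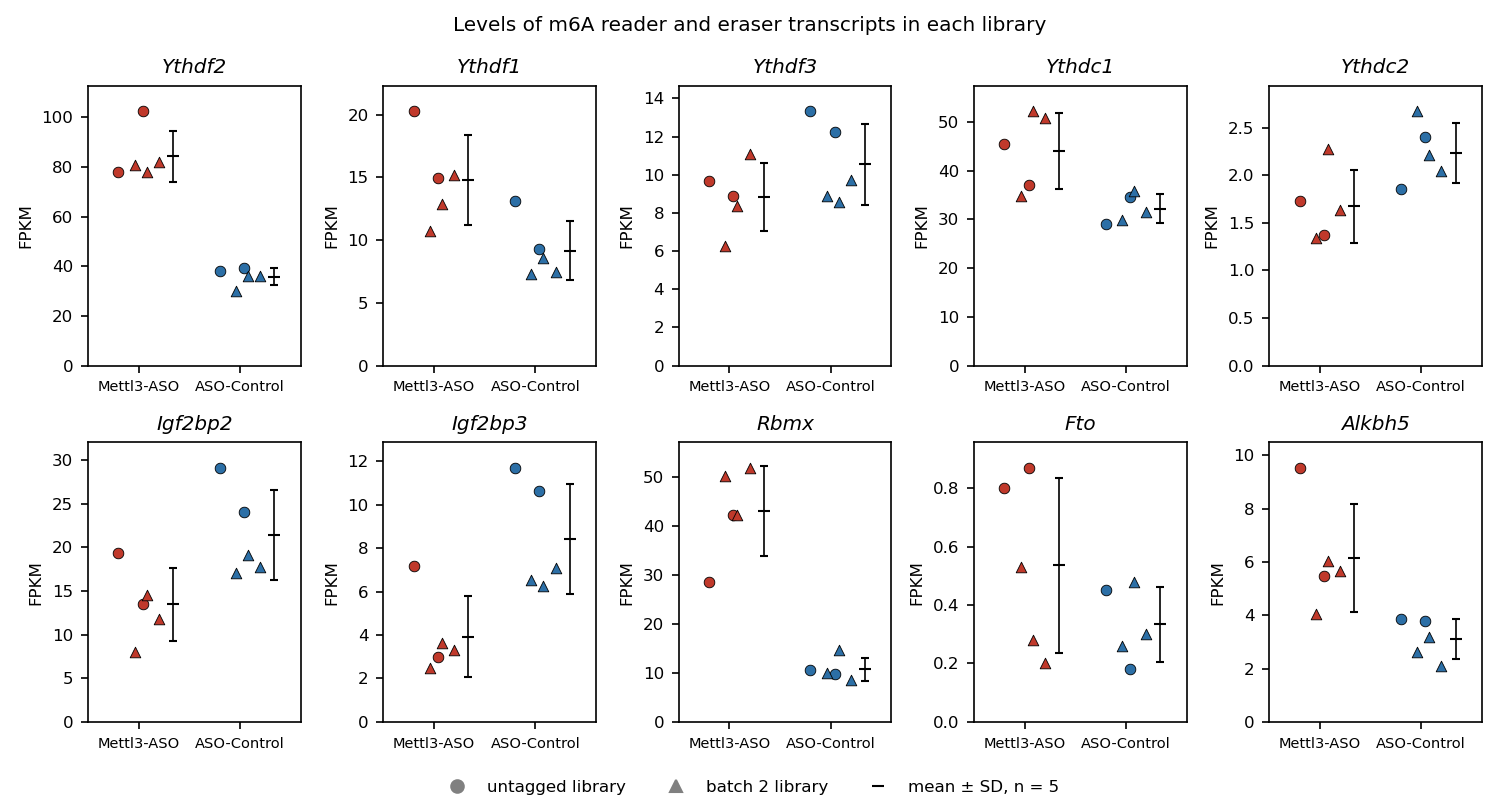
Level of each reader and eraser transcript (FPKM, linear axes from 0) in the 5 Mettl3-ASO and 5 ASO-Control libraries. Circles are untagged libraries, triangles batch 2 libraries, and bars the mean ± SD. Ythdf2, Rbmx and Alkbh5 have no overlap between groups, Igf2bp3 overlaps only through Mettl3-ASO replicate 1 at 7.19 FPKM, and Fto stays under 1 FPKM throughout.

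Ythdf2, whose protein hands marked messages to the CCR4-NOT deadenylase, was the most abundant of the 10 in both groups and rose about as strongly in either batch. The gene lies on the minus strand of chromosome 4 at 132184912 to 132212303 (GRCm38, GENCODE M21). It had 77.99, 102.39, 80.82, 78.14 and 82.07 FPKM in Mettl3-ASO replicates 1 to 5, against 38.12, 39.14, 30.16, 36.03 and 35.92 FPKM in ASO-Control replicates 1 to 5. Every Mettl3-ASO library lay above every control library, and 4 of the 5 lay within a few units of each other. The rise was 2.29-fold (log2 1.19 ± 0.12 SE, adjusted p = 1.2e-05). Its size was 1.21 ± 0.13 within batch 2 and 1.20 ± 0.27 within the untagged libraries (adjusted p = 0.0478), on the log2 scale. Of the 50-base windows of its transcript, 8.55% also occur in annotated copies (Gm6823 and Gm8401) whose own counts were not used here.

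Ythdf1, on chromosome 2 at 180904377 to 180920949, encodes the paralog known mainly for promoting translation of marked messages. It had 20.26, 14.93, 10.71, 12.88 and 15.20 FPKM in Mettl3-ASO replicates 1 to 5 and 13.15, 9.30, 7.34, 8.55 and 7.48 FPKM in ASO-Control replicates 1 to 5. The groups overlapped when all libraries were pooled, since ASO-Control replicate 1, an untagged library, exceeded 2 of the Mettl3-ASO libraries of batch 2, and they did not overlap within either batch. Ythdf1 rose 1.57-fold (log2 0.65 ± 0.15, adjusted p = 0.00334), by 0.70 ± 0.20 in batch 2. In the untagged libraries alone the value was 0.60 ± 0.29 (adjusted p = 0.233).

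The third paralog, Ythdf3, on chromosome 3 at 16183212 to 16217037, was not called. It had 9.69, 8.87, 6.26, 8.35 and 11.08 FPKM in Mettl3-ASO replicates 1 to 5 and 13.32, 12.24, 8.88, 8.60 and 9.72 FPKM in ASO-Control replicates 1 to 5. Its log2 fold change was −0.28 ± 0.17 (adjusted p = 0.18). Mettl3-ASO replicate 5, the highest of its group, decided the call: without it the value was −0.43 ± 0.14 (adjusted p = 0.0244).

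The make-up of the YTHDF readers therefore differed between the groups as a description, with no test. Ythdf2 made up 72.3% to 82.6% of the summed FPKM of the 3 genes in Mettl3-ASO libraries and 59.0% to 67.8% in ASO-Control libraries. Ythdf3 made up 6.40% to 10.2% in Mettl3-ASO libraries and 16.2% to 20.6% in ASO-Control libraries, so neither share overlapped between groups. Ythdf1 held 11.0% to 18.8% in Mettl3-ASO libraries and 14.1% to 20.4% in ASO-Control, with overlap. The sum itself was 97.8 to 126 FPKM in Mettl3-ASO and 46.4 to 64.6 FPKM in ASO-Control. The coding sequences of the 3 genes are 67.6% to 69.6% identical in pairs, with no identical run over 22 bases, so their reads can be told apart.

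**Figure D2:**
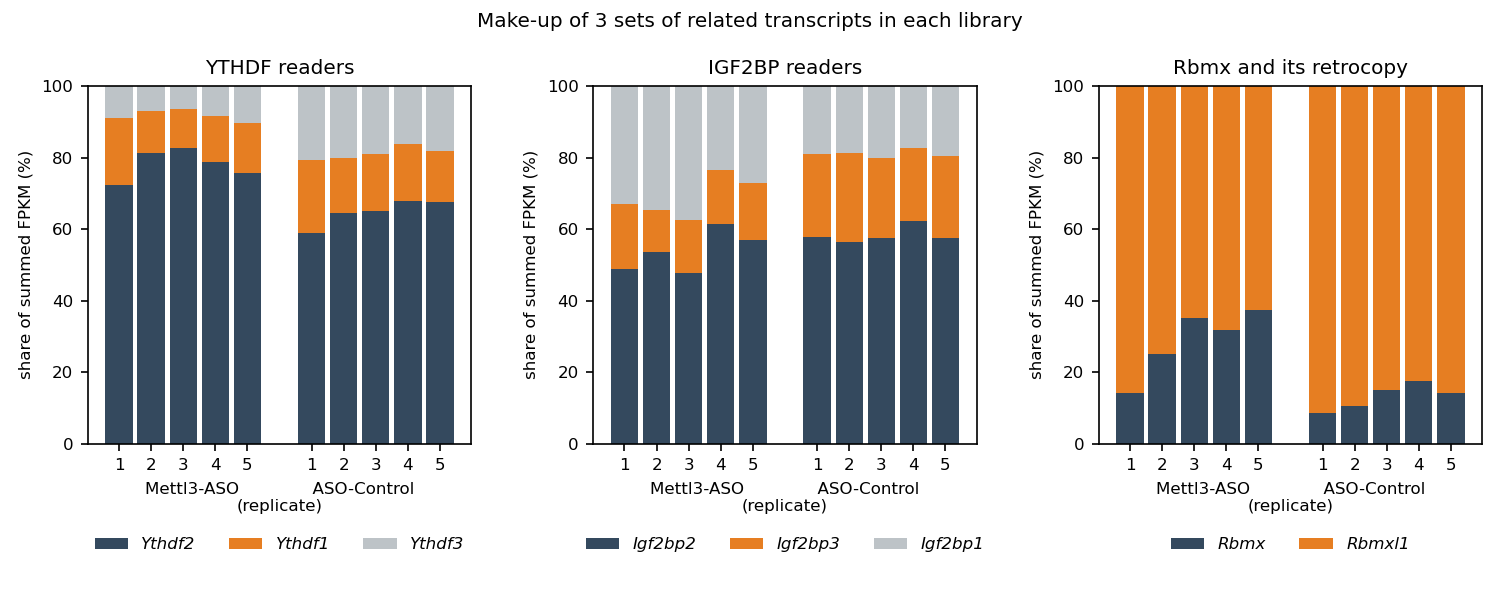
Share (%) of the summed FPKM that each gene takes within the YTHDF readers, the IGF2BP readers, and Rbmx with its retrocopy Rbmxl1, in each of the 10 libraries by replicate. The Ythdf2 share is 72.3% to 82.6% in Mettl3-ASO libraries and 59.0% to 67.8% in ASO-Control, and the Igf2bp1 share is higher in every Mettl3-ASO library than in any ASO-Control library.

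Of the YTHDC readers, Ythdc1 was modestly higher and Ythdc2 was not called. YTHDC1 is the nuclear YTH protein, acting in splicing and export of marked RNA and, in mouse embryonic stem cells, in the silencing of retrotransposons. Ythdc1, on chromosome 5 at 86804221 to 86836659, had 45.44, 37.04, 34.82, 52.11 and 50.74 FPKM in Mettl3-ASO replicates 1 to 5. In ASO-Control replicates 1 to 5 it had 28.95, 34.66, 29.79, 35.90 and 31.52 FPKM. Only Mettl3-ASO replicate 3 lay inside the control range. The log2 fold change was 0.40 ± 0.13 (1.32-fold, adjusted p = 0.0229). This call was lost without Mettl3-ASO replicate 4 or 5 or ASO-Control replicate 1 or 3 (adjusted p from 0.0583 to 0.0654), with no batch term (0.0686), with no filter (0.0692) and within batch 2 (0.0598) or the untagged libraries (0.416). In GENCODE, 20.1% of the 50-base windows of its transcript are shared with Gm43055.

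YTHDC2 is an RNA helicase best known for the entry of mouse germ cells into meiosis. Its gene, on chromosome 18 at 44827746 to 44889724, had the lowest level among the readers, with 1.73, 1.37, 1.34, 2.28 and 1.64 FPKM in Mettl3-ASO replicates 1 to 5. ASO-Control replicates 1 to 5 had 1.86, 2.40, 2.67, 2.21 and 2.04 FPKM, and the ranges overlapped. The log2 fold change was −0.47 ± 0.19 (adjusted p = 0.055). Its adjusted p was 0.0271 without Mettl3-ASO replicate 4, the highest of its group, and 0.0423 with DESeq2.

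Both IGF2BP readers among the members fell, in contrast to most YTH genes. These RNA-binding proteins with KH domains are fetal or oncofetal in expression, and they protect bound messages from decay. Igf2bp2, on chromosome 16 at 22059009 to 22163299, had 19.36, 13.52, 7.99, 14.58 and 11.83 FPKM in Mettl3-ASO replicates 1 to 5. It had 29.11, 24.06, 17.00, 19.06 and 17.69 FPKM in ASO-Control replicates 1 to 5. The untagged libraries were higher than batch 2 in the controls, and within each batch every Mettl3-ASO library lay below every control. Igf2bp2 fell by 0.72 ± 0.16 on the log2 scale (adjusted p = 0.00239). Within batch 2 it fell by 0.68 ± 0.22 (adjusted p = 0.0313), and in the untagged libraries the value was −0.75 ± 0.25 (adjusted p = 0.114).

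Igf2bp3, on chromosome 6 at 49085223 to 49214957, had the largest fall of the members. Its levels were 7.19, 3.00, 2.48, 3.64 and 3.32 FPKM in Mettl3-ASO replicates 1 to 5, against 11.70, 10.61, 6.55, 6.24 and 7.09 FPKM in ASO-Control replicates 1 to 5. Mettl3-ASO replicate 1 stood well above the rest of its group but below both untagged controls. The fall was by 1.16 ± 0.20 on the log2 scale (adjusted p = 4.2e-04), which is 2.23-fold lower, and by 1.31 ± 0.20 without that library. Within batch 2 it fell by 1.11 ± 0.22 (adjusted p = 0.00311), and the untagged value was −1.21 ± 0.39 (adjusted p = 0.106).

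A neighbour limits the reading of Igf2bp3. In GENCODE M21, exons of Malsu1 on the opposite strand cover 35.2% of the Igf2bp3 transcript, whereas the Malsu1 model counted in the tables is 785 bases long. Malsu1 encodes a mitochondrial ribosome assembly factor. It had 116.42, 66.19, 64.13, 57.92 and 46.63 FPKM in Mettl3-ASO replicates 1 to 5 and 157.64, 138.20, 145.70, 133.51 and 120.63 FPKM in ASO-Control replicates 1 to 5. Malsu1 thus lay far above Igf2bp3 in every library and fell by 1.08 ± 0.16 on the log2 scale (adjusted p = 1.7e-04). Without strand, reads from the 2 genes in the shared stretch cannot be told apart, and the sources used here do not tell whether counting was stranded. Both genes had whole expected counts in every library, which does not show from which gene a read came.

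Igf2bp1, the third paralog and not a member, had 13.03, 8.73, 6.25, 5.57 and 5.61 FPKM in Mettl3-ASO replicates 1 to 5 and 9.54, 7.98, 5.98, 5.27 and 5.99 FPKM in ASO-Control replicates 1 to 5. Its log2 fold change was 0.08 ± 0.13 (adjusted p = 0.642), and the ranges overlapped. Igf2bp1 made up 23.4% to 37.4% of the summed FPKM of the 3 paralogs in Mettl3-ASO libraries and 17.2% to 20.3% in ASO-Control. Igf2bp3 made up 11.9% to 18.2% in Mettl3-ASO libraries and 20.4% to 24.9% in ASO-Control. Igf2bp2 stayed the most abundant of the 3 in each library, at 47.8% to 61.3% in Mettl3-ASO libraries and 56.4% to 62.3% in ASO-Control.

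Rbmx had the largest change of all members. It encodes hnRNP G, a nuclear protein of splicing that binds RNA whose structure is opened by the mark. The gene lies on the X chromosome at 57383530 to 57393036. It had 28.59, 42.27, 50.23, 42.23 and 51.89 FPKM in Mettl3-ASO replicates 1 to 5, against 10.54, 9.87, 10.01, 14.72 and 8.60 FPKM in ASO-Control replicates 1 to 5. The lowest Mettl3-ASO library, replicate 1, was still well above the highest control. The rise was 3.89-fold (log2 1.96 ± 0.19, adjusted p = 7.1e-06), with 2.09 ± 0.22 in batch 2 and 1.77 ± 0.33 in the untagged libraries (adjusted p = 0.0332). Without Mettl3-ASO replicate 1 it was 2.10 ± 0.16.

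Rbmx has a retrocopy, Rbmxl1, on chromosome 8 at 78505269 to 78508898, which was listed at a higher level than its parent in all 10 libraries. Their coding sequences are 90.9% identical, differ at 106 of 1167 aligned bases and share no identical run over 67 bases. The pair of stretches below was picked as the gap-free 60 bases with the most differences between Rbmx and Rbmxl1, so it is not typical of the whole. It covers coding bases 109 to 168 of each, with the 11 bases that differ in capitals. That of Rbmx is spliced from chrX:57391320-57391567 and that of Rbmxl1 is at chr8:78506545-78506604, both on the minus strand of GRCm38.
Rbmx: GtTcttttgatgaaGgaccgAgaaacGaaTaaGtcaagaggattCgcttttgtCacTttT
Rbmxl1: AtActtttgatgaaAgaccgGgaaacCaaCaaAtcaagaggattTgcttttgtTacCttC

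Of the 50-base windows of the Rbmx transcript used (1 of 3 listed), 1.46% also occur in other annotated genes, among them Rbmxl1. For the Rbmxl1 transcript the share was 79.0%, with Gm7324, Gm7192 and Rbmx, so its level and the shares of the pair are uncertain. Rbmx and Rbmxl1 had whole expected counts in every library, so the deposited counts show no reads split between them. This does not show from which copy a read came. Rbmxl1 had 173.25, 126.38, 92.90, 90.19 and 87.31 FPKM in Mettl3-ASO replicates 1 to 5 and 111.01, 82.65, 56.25, 69.34 and 51.89 FPKM in ASO-Control replicates 1 to 5. It rose 1.47-fold (log2 0.56 ± 0.12, adjusted p = 0.00161). The share of Rbmx in the summed FPKM of the pair was 14.2% to 37.3% in Mettl3-ASO libraries and 8.67% to 17.5% in ASO-Control, and only Mettl3-ASO replicate 1 lay in the control range. With the counts of both genes summed into 1, an alternative added after the data were seen, the log2 fold change was 0.95 ± 0.12 (adjusted p = 4.3e-05). Of the other relatives, Rbmxl2 rose by 1.15 ± 0.40 (adjusted p = 0.0291) with medians of 2.76 FPKM in Mettl3-ASO and 1.66 FPKM in ASO-Control. Rbmx2 changed by a log2 value of 0.07 ± 0.10 (adjusted p = 0.583), and Rbmy, at most 0.64 FPKM in Mettl3-ASO and 0.29 FPKM in ASO-Control, was not tested.

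Of the erasers, Alkbh5 rose and Fto was close to the limit of detection. ALKBH5 is the nuclear demethylase that acts on m6A directly, and its loss in the mouse impairs male fertility. Alkbh5, on chromosome 11 at 60536381 to 60558512, had 9.54, 5.46, 4.05, 6.05 and 5.66 FPKM in Mettl3-ASO replicates 1 to 5. It had 3.85, 3.78, 2.63, 3.18 and 2.11 FPKM in ASO-Control replicates 1 to 5. The lowest Mettl3-ASO library exceeded the highest control by a small margin. The rise was 1.91-fold (log2 0.93 ± 0.17, adjusted p = 8.2e-04). It was by 0.96 ± 0.23 in batch 2 (adjusted p = 0.00908), and the untagged value was 0.91 ± 0.31 (adjusted p = 0.124).

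FTO, the first m6A demethylase to be described, also acts on other methylated adenosines near the cap. Fto, on chromosome 8 at 91313525 to 91668439, had 0.80, 0.87, 0.53, 0.28 and 0.20 FPKM in Mettl3-ASO replicates 1 to 5 and 0.45, 0.18, 0.26, 0.48 and 0.30 FPKM in ASO-Control replicates 1 to 5. These levels rest on 14 to 49 counts per library in Mettl3-ASO and on 7 to 51 in ASO-Control. The groups overlapped: Mettl3-ASO replicates 1 to 3 were above all controls, while replicates 4 and 5 were within the control range. With no filter on low genes the log2 fold change was 0.42 ± 0.53 (adjusted p = 0.586), and no difference was called. The counts summed to 152 in Mettl3-ASO and 134 in ASO-Control.

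**Figure D3:**
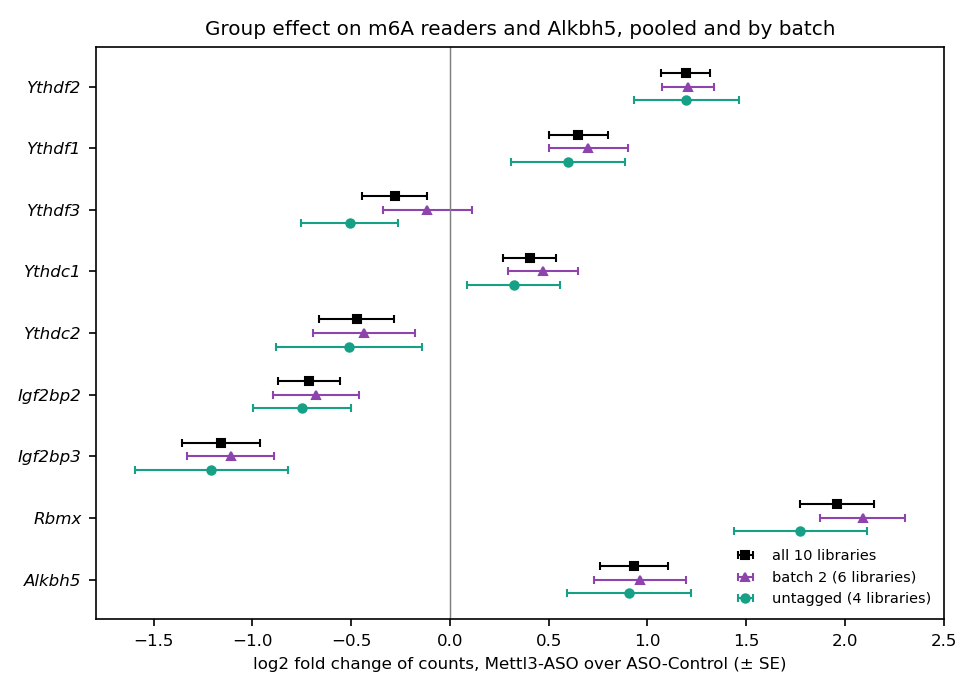
Log2 fold change of counts (Mettl3-ASO over ASO-Control, ± SE) for the 9 tested members, from all 10 libraries and from the 6 batch 2 and 4 untagged libraries alone. The sign is the same in both batches for every gene, and Ythdf3 differs most, at −0.11 in batch 2 and −0.51 in the untagged libraries.

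Whether the group effect differed between batches was tested by the interaction term of edgeR. No gene of 9522 was called (0%), and 159 had an unadjusted p under 0.05. Among the members the largest interaction was that of Ythdf3, at 0.37 ± 0.34 (log2 fold change in batch 2 minus untagged), with an unadjusted p of 0.295. In the untagged libraries alone, where 6.26% of genes were called, 2 members were called higher (Ythdf2 and Rbmx) and 0 lower. In batch 2 alone, where 39.0% were called, 4 were higher and 2 lower, with Ythdc1 the one lost.

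The order of the levels among the 10 genes differed between the groups among the most abundant. In Mettl3-ASO, Ythdf2 averaged 84.3 ± 10.3 FPKM and was followed by Ythdc1 at 44.0 ± 7.84, Rbmx at 43.0 ± 9.22, Ythdf1 at 14.8 ± 3.55 and Igf2bp2 at 13.5 ± 4.14 FPKM (SD, n = 5). In ASO-Control, Ythdf2 averaged 35.9 ± 3.48 FPKM and was followed by Ythdc1 at 32.2 ± 3.02, Igf2bp2 at 21.4 ± 5.13, Rbmx at 10.7 ± 2.33 and Ythdf3 at 10.6 ± 2.11 FPKM (SD, n = 5). The ranges of Ythdf2 and Ythdc1 were apart in Mettl3-ASO and overlapped in ASO-Control. Ythdc1 and Rbmx overlapped in Mettl3-ASO, as did each neighbouring pair from Ythdf1 down to Igf2bp3. Rbmx, Ythdf3, Ythdf1 and Igf2bp3 overlapped as neighbours in ASO-Control, and so did Ythdc1 and Igf2bp2, and Alkbh5 and Ythdc2. Fto was lowest in both groups, with no overlap with Ythdc2 above it.

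The tables also give the transcript length of each gene, averaged over its transcripts by their estimated abundance, which the choice of members did not use. Only Rbmx and Ythdf3 are listed with more than 1 transcript among the members. Rbmx had 2419 to 2427 bases in Mettl3-ASO and 2416 to 2429 bases in ASO-Control, and Ythdf3 5131 to 5158 bases in Mettl3-ASO and 5137 to 5156 bases in ASO-Control. Neither was called in the test of limma on log2 length (adjusted p = 0.968 for Rbmx and 0.999 for Ythdf3), where 8.27% of 2637 genes were called, 59 longer and 159 shorter. With the replicate number as a block, 26 were called longer and 71 shorter, and neither member was called. The ranges of both genes overlapped between groups, beside 9.44% of genes whose lengths did not. The SE of the change was 0.0017 for Rbmx and 0.0018 for Ythdf3 on the log2 scale.

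Related genes gave the setting for the members. Beside each list below stand the shares over all genes tested, of which 25.4% were called higher and 24.0% lower. Of the m6A writing complex, 4 of 8 tested genes rose and 2 fell. The 2 that fell, the targeted gene Mettl3 itself and the adaptor gene Zc3h13, had the smallest p. Zc3h13 fell by 2.58 ± 0.23 on the log2 scale, to a median of 0.70 FPKM in Mettl3-ASO against 4.24 FPKM in ASO-Control. Of 5 genes for other m6A methyltransferases and their partners, 4 were tested, 1 rose and 1 fell. Trmt112, whose protein activates METTL5 and other methyltransferases, rose by 0.36 ± 0.12 (adjusted p = 0.0218), and Mettl5, which methylates ribosomal RNA, fell by 0.32 ± 0.12 (adjusted p = 0.0471).

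Among 11 other proposed readers, none rose, 3 fell and 8 were not called, with a median log2 fold change of 0.06. Over all genes tested, 25.4% were called higher and 24.0% lower. Lrpprc, a regulator of mitochondrial RNA, fell by 0.75 ± 0.18 (adjusted p = 0.0035), with medians of 19.83 FPKM in Mettl3-ASO and 31.98 FPKM in ASO-Control. Elavl1, which encodes the RNA-stabilizing protein HuR, fell by 0.50 ± 0.12 (adjusted p = 0.0041), with medians of 28.90 FPKM in Mettl3-ASO and 38.19 FPKM in ASO-Control. The third was Hnrnpc, which fell by 0.41 ± 0.13.

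The decay machinery that works with YTHDF2 held 9 rises in the longest of the related lists. Of 18 genes of CCR4-NOT, of the RNase P/MRP branch reached through HRSP12, and Upf1, 9 rose, 2 fell and 7 were not called, with a median log2 fold change of 0.39 beside 0.01 over all genes. Rpp38, a subunit of RNase P and MRP, rose by 1.26 ± 0.12, with medians of 488.68 FPKM in Mettl3-ASO and 178.90 FPKM in ASO-Control. Cnot1, the scaffold of CCR4-NOT that YTHDF2 binds, rose by 1.05 ± 0.17 (adjusted p = 2.7e-04), with medians of 26.86 FPKM in Mettl3-ASO and 11.56 FPKM in ASO-Control. The 2 that fell were Cnot2, by 0.57 ± 0.14, and Rpp30, by 0.55 ± 0.11. Over all genes tested 25.4% were called higher, and in the shorter lists 4 of 8 writer genes and 2 of 3 Rbmx relatives rose.

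Of 8 partners of YTHDC1 and YTHDC2, 7 are in the tables and 6 were tested, of which 1 rose, 1 fell and 4 were not called. Nxf1, the main export receptor of messenger RNA, rose by 0.85 ± 0.19 (adjusted p = 0.0030), and Srsf10, a splicing factor that competes with SRSF3 for YTHDC1, fell by 0.32 ± 0.10 (adjusted p = 0.0169). The AlkB paralogs of the erasers, which mostly act on other substrates, split evenly. Of 7 tested, 2 rose and 2 fell, beside 25.4% of all genes tested called higher and 24.0% lower. Alkbh1 rose by 0.72 ± 0.17 and the tRNA-modifying Alkbh8 by 0.64 ± 0.19, while Alkbh3 fell by 0.53 ± 0.15 and Alkbh6 by 0.55 ± 0.17. The 3 not called were Alkbh2 at 0.21 ± 0.14, Alkbh4 at 0.20 ± 0.21 and Alkbh7 at 0.04 ± 0.20 (log2 fold changes).

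**Figure D4:**
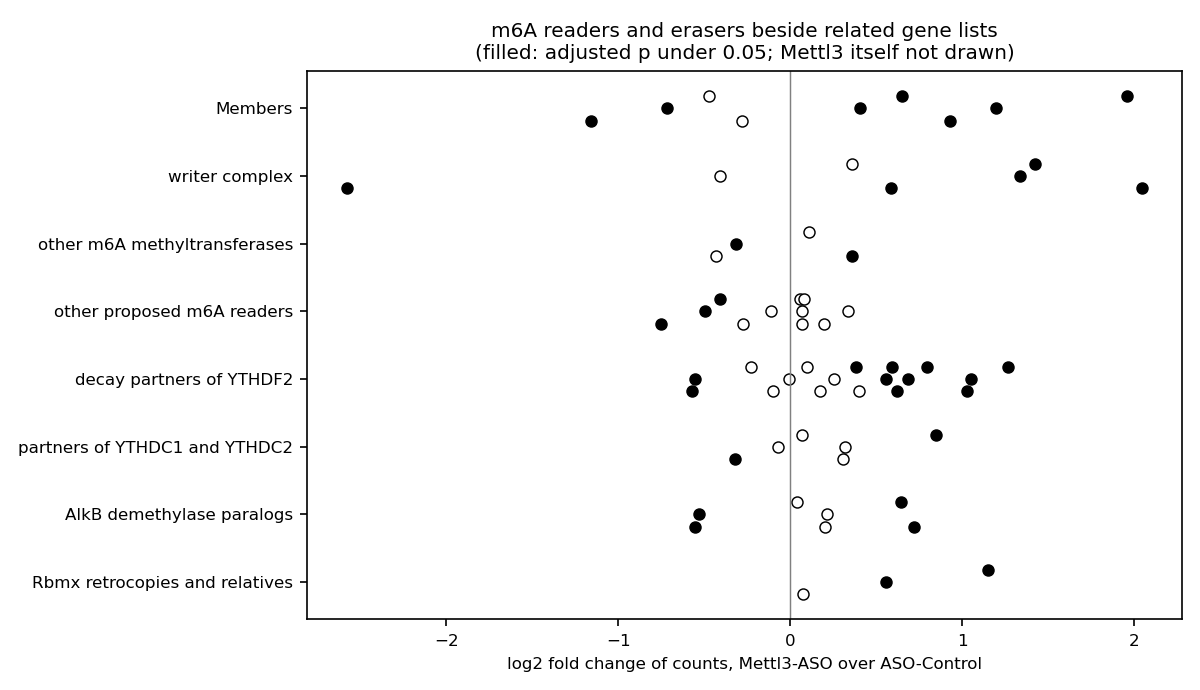
Log2 fold change of counts (Mettl3-ASO over ASO-Control) for each tested gene except Mettl3, which is not drawn, with the members in the top row and 7 related lists under it. Filled points passed an adjusted p under 0.05. Members run from −1.16 (Igf2bp3) to 1.96 (Rbmx), and 9 of 18 decay partners of YTHDF2 lie filled on the right.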

How the data were processed

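The authors deposited 1 gene table per library with RSEM's columns. STAR 2.7.10, RSEM 1.3.3 and the mm10 build are named per the submitters' processing notes; the options, the strand setting and the annotation release were not given in the sources used here. Among the values, the deposited expected counts are estimated reads per gene, and the deposited TPM and FPKM are scaled per library by the authors; length in bases is also deposited. All 10 members had whole expected counts in every library (tolerance 0.01), as did Malsu1, Rbmxl1 and 88.0% of tested genes. Mettl3 did not.

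Expected counts were rounded and tested with edgeR 4.0.16 (R 4.3.3; TMM, terms for batch and group, Benjamini-Hochberg over the 9522 genes whose FPKM averaged 1 or more). SE is the absolute log2 fold change over the square root of F. Lengths were tested with limma 3.58.1. DESeq2 1.42.0 and limma on log2(FPKM + 1) were alternatives. Scripts were tested on simulated data in which far fewer genes changed than were called here. The edgeR fit recovered 47.3% of 74 simulated 2-fold changes and 95.5% of 66 simulated 4-fold changes. The adjustment of p is stricter when few genes change, so these shares do not give the recovery to expect for the members. A member that was not called may still differ. Deviations from the group and batch means correlated at 0.105 to 0.273 in the 5 same-numbered pairs. Other pairs reached at most 0.143 across batches and 0.024 within a batch. Both untagged pairs give 1 value by construction, and the labels state no pairs. The replicate number was tried as a block. Libraries sharing a group and a batch differed by more than sampling noise in every pair (chi-square per degree of freedom 19.6 to 66.7 over 8 pairs). Coordinates are from GENCODE M21 (GRCm38), promoters from RefSeq. Members and lists were chosen with earlier results of these data known. All 10 members, the 2 genes of each related list with the smallest p, and all paralogs were to be named; Hnrnpc, Cnot2, Rpp30, Malsu1 and Igf2bp1 were named after their values were seen. Counting error alone does not cover amplification, since fragments carry no molecular identifiers.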

Additional observations from a re-analysis of the deposited data

Results flagged for a closer look

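In 20 groups of 5 libraries (10 members, 2 groups each), the level of 1 library stood apart from the other 4 in 2 cases. Chance gives about 1 in 20 where all libraries of a group are alike. Each group here mixes untagged and batch 2 libraries, and batch was not taken into account. Both libraries that stood apart were untagged. Ythdf2 was at 102.39 FPKM in Mettl3-ASO replicate 2, with the others of its group at 77.99 to 82.07 FPKM. Without that library its log2 fold change was 1.09 ± 0.11, against 1.19 ± 0.12 with it. Igf2bp3 was at 7.19 FPKM in Mettl3-ASO replicate 1, with the others at 2.48 to 3.64 FPKM. Malsu1, on the opposite strand, was also highest of its group there, at 116.42 FPKM. In that library Ythdf1, Igf2bp2, Alkbh5, Igf2bp1 and Rbmxl1 were likewise at their highest among the Mettl3-ASO libraries, while Ythdf2 and Rbmx were at their lowest. ASO-Control replicate 1, also untagged, was the highest control for Igf2bp3, Malsu1, Ythdf1, Igf2bp2, Alkbh5, Igf2bp1 and Rbmxl1. It was not the lowest control for Ythdf2 or Rbmx. The source of these differences was not tested.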

How the results depend on the processing

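The 5 rises and 2 falls kept their direction in the alternatives that tested them (a mean of at least 5 FPKM removed Alkbh5, leaving 4 rises called), and those of Ythdf2 and Rbmx also kept their call. The untagged libraries alone ended the calls of Ythdf1, Ythdc1, Igf2bp2, Igf2bp3 and Alkbh5; there 361 genes were called higher and 235 lower, with 2 members higher and 0 lower, and fewer libraries were tested. Leaving out 1 library gave 4 to 5 members higher and 2 to 3 lower, and 2162 to 2461 genes higher and 2022 to 2339 lower. With the replicate block, 2630 genes were called higher and 2616 lower, and no call of a member changed. Length calls moved more: 26 longer and 71 shorter with the replicate block, 32 and 54 with effective length, and 32 to 53 and 88 to 150 when 1 library was left out; the cause was not tested. A pseudocount of 5 with limma, which shrinks low genes by construction, gave log2 values of −0.59 for Igf2bp3, 0.45 for Alkbh5, −0.17 for Ythdf3 and −0.12 for Ythdc2. Fto had 7 to 51 counts per library; what sets its error was not tested.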
